A study of Mus musculus with 7 samples.

Results

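The genes described here encode 9 complement components and regulators that the liver makes: *C3*, *C4b*, *Hc* (the mouse gene for C5), *C6*, *C8a*, *C8b*, *C9*, *Cfb* and *Cfi*. They were picked by symbol from a table of read counts, and all 9 were present among its 14819 genes. The table came from RNA-seq libraries of mouse primary hepatocytes, from 4 wild-type (WT) samples and 3 samples of WDR6 whole-body knockout mice (WDR6-WKO). In the WDR6-WKO mice, CRISPR–Cas9 had removed exon 2 of *Wdr6*, so the gene was missing from every cell type of the animal and not from hepatocytes alone. The mice were male. Hepatocytes were freed from the liver by collagenase perfusion and kept overnight in medium with fetal bovine serum before RNA was taken, and neither group was treated. The study describes its mice in general as young adult C57BL/6J animals and gives no separate age or strain for the knockout line.

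Complement is a set of plasma proteins that mark microbes and damaged cells and cut one another in a cascade. The classical, lectin and alternative pathways meet at C3, and cleavage of C5 then starts the assembly of C6, C7, C8 and C9 into a pore, the membrane attack complex. Hepatocytes secrete most of these proteins, and several of them belong to the acute phase response, in which cytokines such as interleukin-6 change what the liver secretes.

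The WT libraries held 18982012 to 20069590 counted reads each, and those of WDR6-WKO held 17816913 to 23668940. Levels are given as CPM (a count relative to a fixed library total) after scaling by the trimmed mean of M-values (TMM), and groups as mean ± s.d. over 4 WT and 3 WDR6-WKO libraries. *Wdr6* itself was 44.0 ± 4.03 CPM in WT and 2.38 ± 0.179 CPM in WDR6-WKO, or 5.39% of WT. WDR6-WKO replicate 3 stood apart: its chi-square per gene against the other 2 WDR6-WKO libraries was 14.3 and 16.0, where the other within-group pairs ran from 3.80 to 8.23. Without it, 4233 genes were called in place of 1897, so values without it are also given for members that it moved by over 1.5 times or whose call it ended, and for *C9*. The series describes its samples as coming from separate experiments, and edgeR's p-values set the difference between groups against the spread between these samples.

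*C9* and *C8a*, which encode parts of the membrane attack complex, rose in WDR6-WKO hepatocytes, and *C3*, the shared centre of the cascade, fell. The other 6 genes did not pass the test, among them *C6* (log2 fold change -0.35), which encodes another part of the complex. *C8a* passed it in 11 of 16 alternative ways of processing. A gene was called where edgeR's quasi-likelihood test, adjusted by Benjamini-Hochberg over 14779 genes, gave a p below 0.05. Of the 9 genes, 2 were called higher and 1 lower, against 6.65% of all tested genes called higher, 6.18% lower and 12.8% in either direction. The study's own thresholds, a log2 change of at least 0.35 and an unadjusted p below 0.05, were applied here to the edgeR fit. The study had used them with DESeq2. In edgeR they picked 10.4% of all genes, and *C8a* and *C9* among the 9. *C6* missed the fold threshold in edgeR (-0.348) and lay past it in DESeq2 (-0.355). The 3 WDR6-WKO libraries lay wholly outside the WT range for 3 of the 9 genes, *C3*, *C8b* and *C9*, against 23.5% of all genes. The median log2 fold change of the 9 genes was 0.02, beside 0.01 for all genes. In these bulk samples, fewer cells of a type and less RNA per cell cannot be told apart.

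**Figure D1:**
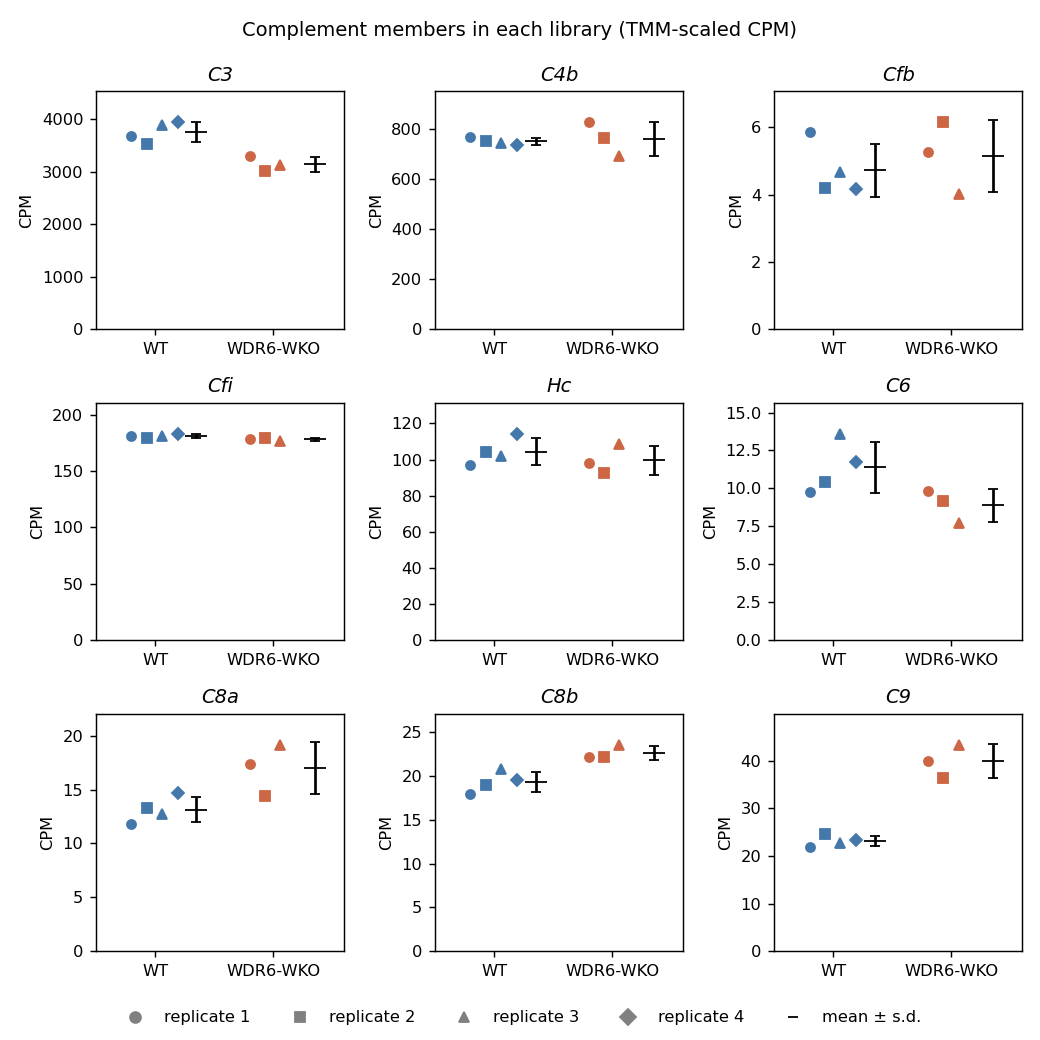
Level of each of the 9 genes in every library, in TMM-scaled CPM on axes that start at 0 and differ between panels, with points for the 4 WT and 3 WDR6-WKO libraries (1 shape per replicate number) and bars for mean ± s.d. The *C9* points of WDR6-WKO lie at 36.3 CPM or above, where no WT library exceeds 24.5 CPM.

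The promoters are shown for the 3 genes that passed the test. Each is the stretch just before the transcription start, 5′ to 3′ along the gene, from RefSeq on GRCm38.p6, and 6 of the 9 genes matched that table. The *C9* stretch is printed without its last 19 bases, which lie past the gene's start in GENCODE. Motif positions count from the RefSeq start, with those 19 bases included. Capitals mark the match to a motif. *C3* lies at chr17:57228137-57228386 on the minus strand, *C8a* at chr4:104876399-104876648 on the minus strand and *C9* at chr15:6445096-6445326 on the plus strand.
C3: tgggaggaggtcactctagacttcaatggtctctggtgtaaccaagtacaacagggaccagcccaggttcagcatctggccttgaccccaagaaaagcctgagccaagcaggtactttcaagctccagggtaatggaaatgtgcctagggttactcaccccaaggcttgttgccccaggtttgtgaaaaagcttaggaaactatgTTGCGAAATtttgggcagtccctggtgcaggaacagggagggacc
C8a: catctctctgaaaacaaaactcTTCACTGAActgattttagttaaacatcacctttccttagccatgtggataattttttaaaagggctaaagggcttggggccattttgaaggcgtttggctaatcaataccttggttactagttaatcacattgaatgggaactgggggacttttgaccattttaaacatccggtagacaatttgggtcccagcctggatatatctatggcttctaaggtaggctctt
C9: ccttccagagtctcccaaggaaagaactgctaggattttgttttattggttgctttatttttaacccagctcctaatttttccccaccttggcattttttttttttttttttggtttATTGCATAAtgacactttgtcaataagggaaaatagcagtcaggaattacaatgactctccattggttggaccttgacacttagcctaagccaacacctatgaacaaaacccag
The C/EBP pattern TTNNGNAAT, searched on both strands, was found in *C3*, 45 to 37 bases before the RefSeq start, and in *C9*, 133 to 125 bases before it. It was also found in *C6*, so that 3 of the 6 promoters held it, beside 10.2% of 32851 promoters of the table. The GAS pattern TTCNNNGAA, which reads the same on both strands, was found in *C8a* alone of the 6, 228 to 220 bases before the start, and in 7.02% of all promoters. No match to the ISRE motif, the HNF4 pattern CAAAGTCCA or the kappa-B motif was found in the 6 windows, and these were found in 2.98%, 0.384% and 7.25% of all promoters. A match is a run of letters and does not show that a factor binds.

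*C3* encodes the protein whose cleavage coats targets and drives the cascade on. Its gene lies on chromosome 17 from 57203970 to 57228136, on the minus strand (GRCm38), with 41 exons in a transcript of 5136 bases. *C3* was at 3687, 3526, 3885 and 3941 CPM in the 4 WT libraries and at 3297, 3015 and 3126 CPM in WDR6-WKO. Every WDR6-WKO library lay below every WT library. The mean fell from 3760 ± 190 to 3146 ± 142 CPM, to 83.7% of WT, a log2 fold change of -0.26 (s.e. 0.05, adjusted p = 0.00336, edgeR). The size is below the fold threshold the study set.

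*C4b* encodes C4, which the classical and lectin pathways cut to form the enzyme that cleaves C3. Its gene lies on chromosome 17 from 34728380 to 34743882, on the minus strand. It was at 770, 754, 745 and 739 CPM in WT and at 827, 766 and 692 CPM in WDR6-WKO. The WDR6-WKO libraries spread on both sides of the WT range. The log2 fold change was 0.02, with an interval of 2 standard errors from -0.09 to 0.13 (adjusted p = 0.863, edgeR). Without WDR6-WKO replicate 3 the log2 fold change was 0.08 (adjusted p = 0.13, edgeR). Of its 50-base stretches, 35.2% also occur in the paralogue *C4a*, so reads may have been split between the pair. *C4a* was at 14.5 ± 0.495 CPM in WT and 12.9 ± 1.37 CPM in WDR6-WKO.

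*Cfb* encodes factor B, the catalytic part of the alternative pathway's C3-cleaving enzyme, and *Cfi* encodes factor I, the protease that inactivates cleaved C3 and C4. *Cfb* lies on chromosome 17 from 34856374 to 34862518, on the minus strand, and *Cfi* on chromosome 3 from 129835884 to 129875332, on the plus strand. *Cfb* was at 5.85, 4.19, 4.68 and 4.17 CPM in WT and at 5.28, 6.14 and 4.02 CPM in WDR6-WKO, with overlapping groups. Its log2 fold change was 0.13, with an interval from -0.21 to 0.47 (adjusted p = 0.668, edgeR), the widest of the 9 genes. Without WDR6-WKO replicate 3 it was 0.27 (adjusted p = 0.243, edgeR). At 72 to 130 reads per library, counting alone gives a coefficient of variation of 10.0%, and the libraries varied by 16.7% in WT and 20.7% in WDR6-WKO. Of its 50-base stretches, 81.4% are shared with the readthrough gene *Gm20547*, which was not analysed here, so the *Cfb* level is uncertain. *Cfi* was at 181, 179, 181 and 183 CPM in WT and at 179, 179 and 177 CPM in WDR6-WKO. Its s.d. was the smallest beside its mean, and its log2 fold change of -0.02 had an interval from -0.11 to 0.06 (adjusted p = 0.778, edgeR).

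*Hc* encodes C5, whose cleavage releases an inflammatory peptide and starts the pore. It lies on chromosome 2 from 34983331 to 35061438, on the minus strand. It was at 96.9, 104, 102 and 114 CPM in WT and at 98.1, 92.3 and 108 CPM in WDR6-WKO. The groups overlapped, and the log2 fold change of -0.07 had an interval from -0.20 to 0.06 (adjusted p = 0.548, edgeR). Without WDR6-WKO replicate 3 the log2 fold change was -0.13 (adjusted p = 0.0731, edgeR). *C6*, on chromosome 15 from 4727175 to 4814967 on the plus strand, encodes the protein that binds the C5 fragment next. It was at 9.73, 10.4, 13.6 and 11.7 CPM in WT and at 9.81, 9.17 and 7.71 CPM in WDR6-WKO. Only WDR6-WKO replicate 1 reached into the WT range. The log2 fold change was -0.35 (s.e. 0.13, adjusted p = 0.0918, edgeR), which did not pass the test.

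*C8a* and *C8b* encode the alpha and beta chains of C8, which inserts into the membrane. Their genes lie tail to tail on chromosome 4, *C8b* from 104766317 to 104804548 on the plus strand and *C8a* from 104815679 to 104876398 on the minus strand, 11130 bases apart. *C8a* was at 11.8, 13.3, 12.7 and 14.7 CPM in WT and at 17.4, 14.4 and 19.2 CPM in WDR6-WKO. WDR6-WKO replicate 2 lay just below the highest WT library, and the other two lay above every WT library. The mean rose from 13.1 ± 1.18 to 17.0 ± 2.43 CPM, a log2 fold change of 0.37 (s.e. 0.11, adjusted p = 0.0375, edgeR). This call was lost when WT replicate 1, 2 or 3 or WDR6-WKO replicate 1 or 3 was left out (adjusted p up to 0.131, edgeR). Without WDR6-WKO replicate 3 the log2 fold change was 0.28 (adjusted p = 0.0510, edgeR).

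*C8b* was at 17.9, 19.0, 20.7 and 19.5 CPM in WT and at 22.1, 22.2 and 23.6 CPM in WDR6-WKO. The groups did not overlap. The log2 fold change was 0.23 (s.e. 0.08, adjusted p = 0.0703, edgeR), which did not pass the test. *C8g*, which encodes the third chain of C8, was at 12.3 ± 0.790 CPM in WT and 14.0 ± 0.873 CPM in WDR6-WKO (adjusted p = 0.212, edgeR), with no overlap between groups.

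*C9* encodes the protein that polymerises into the wall of the pore. Its gene lies on chromosome 15 from 6445327 to 6498751, on the plus strand (GRCm38). *C9* had 435, 468, 428 and 466 reads in the WT libraries and 961, 768 and 776 reads in WDR6-WKO. In CPM it was at 21.9, 24.5, 22.8 and 23.4 in WT and at 39.9, 36.3 and 43.3 in WDR6-WKO. Every WDR6-WKO library lay above every WT library. The mean rose from 23.1 ± 1.09 to 39.9 ± 3.53 CPM, 72.2% higher, a log2 fold change of 0.78 (s.e. 0.08, adjusted p = 5.66e-06, edgeR). By p it ranked 76 among all tested genes. Without WDR6-WKO replicate 3 the log2 fold change was 0.72 (adjusted p = 5.55e-09, edgeR).

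**Figure D2:**
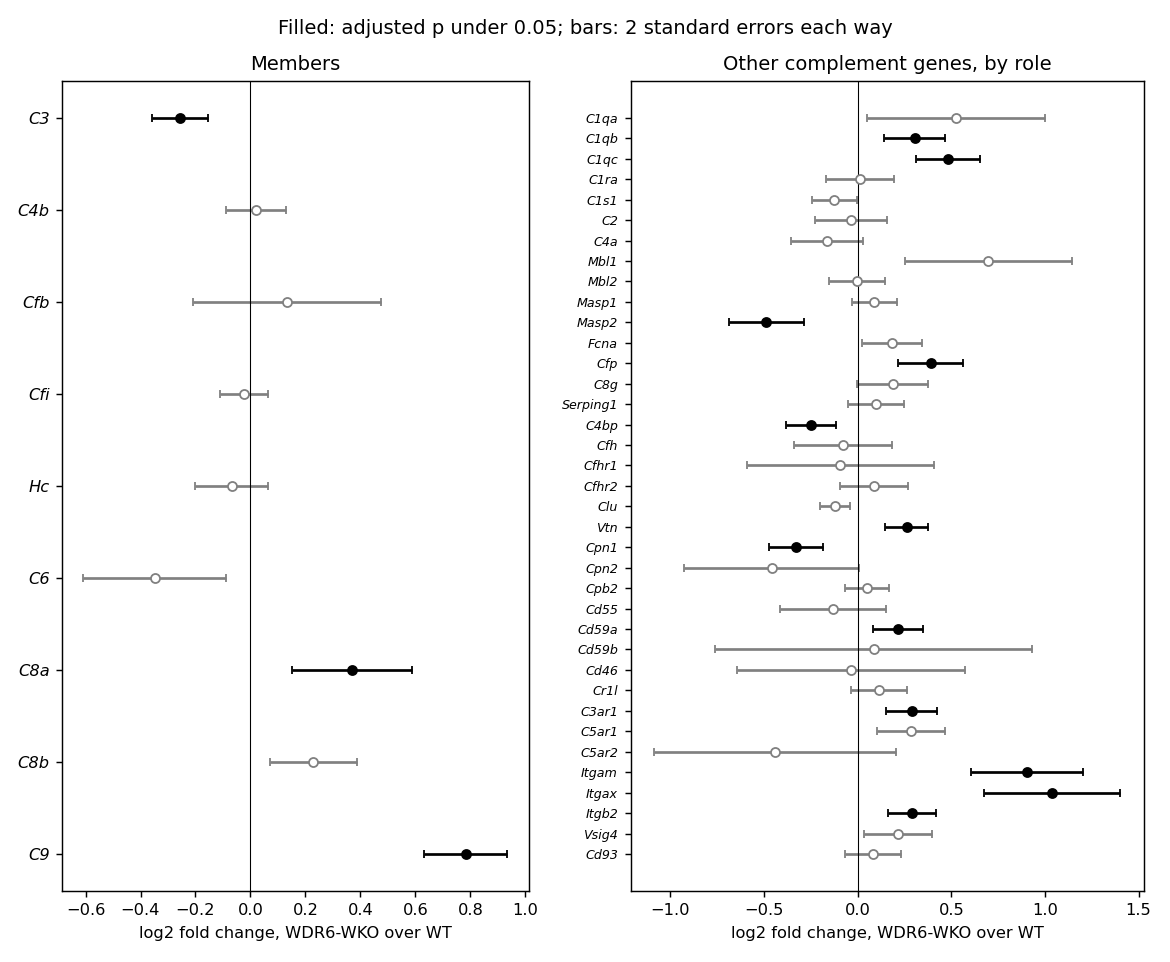
Log2 fold change, WDR6-WKO over WT, of the 9 genes (left) and of the 37 other complement genes tested (right), with bars of 2 standard errors each way and filled points where the adjusted p was below 0.05. *C9* stands at 0.78 and *C8a* at 0.37, *C3* lies at -0.26, and *C4b* and *Cfi* lie near 0.

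Levels of different genes can be set side by side per kilobase of transcript. In WT, *C3* led at 732 CPM per kb, followed by *C4b* at 140 and *Cfi* at 87.1 CPM per kb. *Hc* at 19.2, *C9* at 11.3 and *C8b* at 8.62 CPM per kb came next, and *C6* at 3.96, *C8a* at 3.63 and *Cfb* at 1.72 CPM per kb were last. The place of *Cfb* is uncertain, as 81.4% of its 50-base stretches are shared with *Gm20547* and the counting of shared reads is not known. Of neighbours in this order, *C6* and *C8a* were the pair whose WT libraries overlapped. In WDR6-WKO, *C9* at 19.5 CPM per kb and *Hc* at 18.3 CPM per kb overlapped, and *C8a* at 4.69 stood above *C6* at 3.09 CPM per kb. *C3* made up 76.1 to 78.0% of the summed CPM of the 9 genes in WT and 72.8 to 74.4% in WDR6-WKO.

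**Figure D3:**
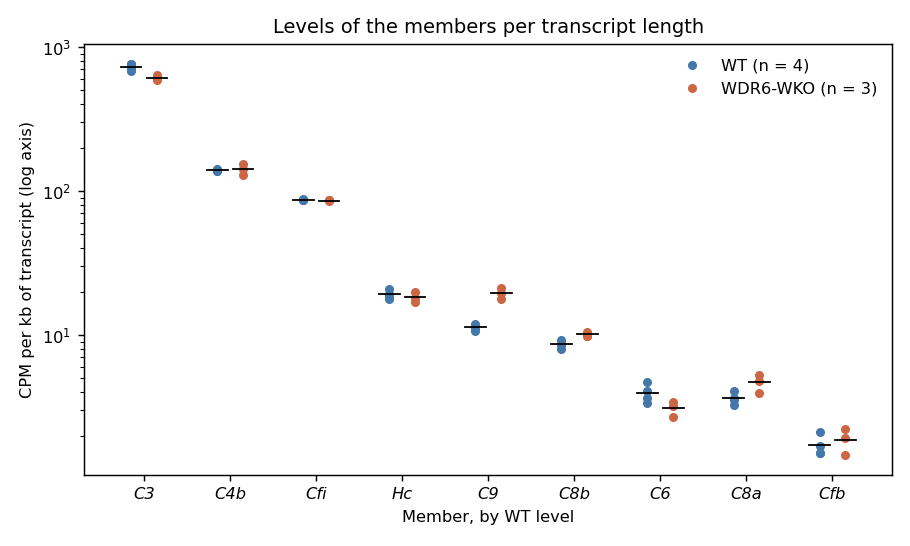
CPM per kilobase of transcript for each gene in each library, on a log axis, with points for libraries and lines for group means. *C3* is highest in both groups, at means of 732 and 613 CPM per kb, and *Cfb*, whose level is uncertain because of shared reads, is lowest.

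Ratios of reads between partners were compared within each library, for 5 pairs. The ratio of *C6* to *C9* reads fell from a mean of 0.493 in WT to 0.226 in WDR6-WKO, and the groups did not overlap. Its difference on the log2 scale was -1.13 (exact two-sided permutation p = 0.0286, the smallest that 35 arrangements allow, adjusted p = 0.143 over the 5 pairs). The differences for *C8a* to *C8b* (0.13, adjusted p = 0.476), *C3* to *Hc* (-0.19, 0.143), *Cfb* to *Cfi* (0.14, 0.571) and *Cfb* to *C2* (0.15, 0.571), by the same exact permutation test, did not pass either. The ratios with *Cfb* are uncertain because of its shared reads. Of the 50-base stretches of *C2*, 58.0% are also shared with *Gm20547*. With 5 pairs, no adjusted p could fall below the threshold unless several pairs reached the smallest p.

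**Figure D4:**
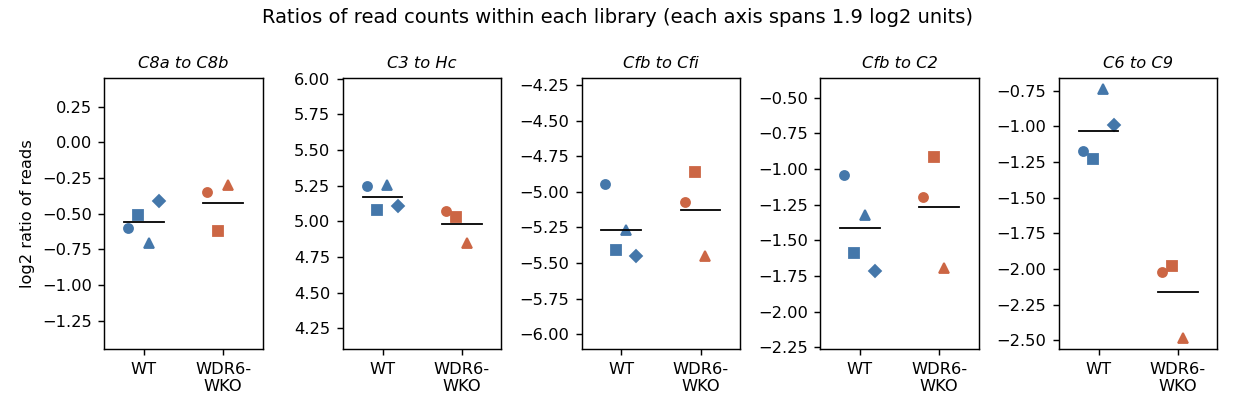
Log2 ratio of reads between partner genes in each library, for 5 pairs, with WT and WDR6-WKO libraries as points, lines for group means and axes of equal span. The *C6* to *C9* ratio shifts by -1.13, the *C3* to *Hc* groups lie just apart at a shift of -0.19, and the other 3 pairs overlap. The ratios with *Cfb* are uncertain because of shared reads.

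Of 48 other complement genes listed, 38 were in the table and 37 were tested, with 9 higher, 3 lower and 25 neither, and a median log2 fold change of 0.09. Over all tested genes, 6.65% were called higher and 6.18% lower. Among starters of the classical pathway, *C1qb* (log2 fold change 0.30) and *C1qc* (0.48) rose. *C1qa*, for the third chain of C1q, was at 0.53 and was not called (adjusted p = 0.220, edgeR). Its WDR6-WKO replicate 3, at 43.6 CPM, lay below the WT range of 45.1 to 52.6 CPM. That replicate lay inside the WT range for *C1qb* and above it for *C1qc*. In the alternative pathway, *Cfp*, which encodes properdin, rose by 0.39. The receptor genes *C3ar1* (0.29), *Itgam* (0.91), *Itgax* (1.04) and *Itgb2* (0.29) rose, as did *Vtn* (0.26) and *Cd59a* (0.22), whose products restrain the pore. *Itgam* and *Itgax* rest on few reads, 51 to 57 and 34 to 47 per WT library. *Masp2*, a lectin pathway protease, fell by 0.49, *C4bp*, which restrains C4, fell by 0.25 and *Cpn1*, part of the enzyme that inactivates complement peptides, fell by 0.33. The call of *Cd59a* held in 7 of 16 alternatives and was lost with a replicate block (adjusted p = 0.0857, edgeR), and that of *C1qb* held in 11 of 16 and was lost with the block (adjusted p = 0.0603, edgeR). With the block, WT replicate 4 has no partner of its number and adds nothing to the comparison of groups. The calls of *C4bp*, *Cfp* and *Vtn* were lost in 1 or 2 alternatives, and the other 7 calls held in all 16. C1q and the integrins are known from macrophages, so the levels of cell type markers are given next.

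Of 13 markers of Kupffer cells and macrophages, 3 were higher (*Lyz2*, *Fcgr1* and *Ctss*), 0 lower and 10 neither. Log2 fold changes were positive for 11 and negative for 2, *Timd4* (-0.48) and *Ptprc* (-0.03). The summed level of the 13 was 760 to 844 CPM in WT and 879 to 1028 CPM in WDR6-WKO. The markers differed in how the WDR6-WKO libraries ranked: *Marco* was at 158, 165 and 105 CPM in replicates 1, 2 and 3, and *Lyz2* at 77.3, 74.7 and 79.5 CPM. Of 10 hepatocyte markers, 0 were higher and 6 lower, with sums of 13342 to 15919 CPM in WT and 12323 to 14230 CPM in WDR6-WKO. Of 5 bile duct markers, *Sox9* and *Spp1* were higher. *Krt19* (log2 fold change -0.05), *Krt7* (-0.10) and *Epcam* (0.34) were not called. The sums of 3068 to 3360 CPM in WT and 3714 to 4306 CPM in WDR6-WKO were mostly *Spp1*. It was at 2980 ± 178 CPM in WT and 3693 ± 338 CPM in WDR6-WKO. Of 9 stellate cell markers, 1 was higher and 1 lower (532 to 590 and 567 to 614 CPM), and of 8 sinusoidal endothelial markers none was called by edgeR (223 to 257 and 202 to 246 CPM). The 5 neutrophil and lymphocyte markers were not analysed here. Beside these marker counts, 6.65% of all tested genes were called higher and 6.18% lower. The part of these markers in the complement results was not tested.

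Of 19 genes for regulators of complement transcription, 2 were higher and 6 lower. On the log2 scale, *Il1r1* fell by 0.31, *Cebpa* by 0.29, *Hnf4a* by 0.27, *Nr1h4* by 0.21 and *Ifngr1* by 0.20. The calls of *Nr1h4*, *Cebpa* and *Ifngr1* held in 10, 13 and 13 of 16 alternatives. Of 22 acute phase genes, 7 were higher and 5 lower, with a median log2 fold change of 0.08. *Saa3* rose by 1.40, *Hamp* by 1.19, *Orm2* by 0.64 and *Lcn2* by 0.45, and *Fgb*, a fibrinogen chain, fell by 0.45 and *Lbp* by 0.40. Both lists, like the 9 genes, held members called in each direction, beside 6.65% of all tested genes called higher and 6.18% lower.

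**Figure D5:**
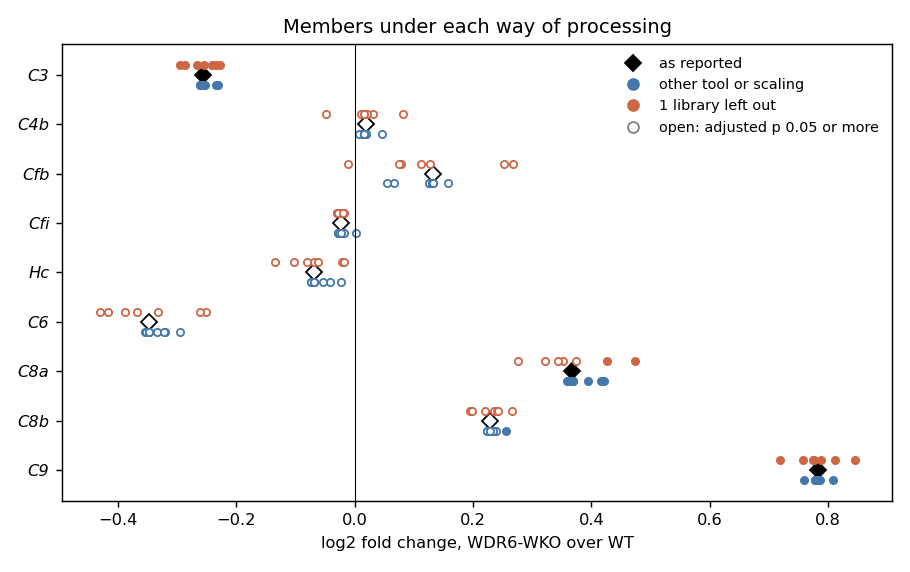
Log2 fold change of each gene under each way of processing, with a diamond for the value in the text, blue for another tool or scaling, orange for 1 library left out, and filled points where the adjusted p was below 0.05. *C9* stays between 0.72 and 0.84 and *C3* between -0.30 and -0.23, with filled points throughout, and *C8a* has open points where a library was left out.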

How the data were processed

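Read counts per gene were used as deposited by the authors, who had aligned reads to mm10 with Bowtie2 2.2.3 per the labels. The counting tool, annotation and use of strand are not given in the sources used here. Library totals were 17816913 to 23668940 counts, and intervals are the log2 fold change with 2 standard errors each way. Genes passing filterByExpr (14779 of 14819) were tested with edgeR 4.0.16 (quasi-likelihood, TMM, robust) in R 4.3.3, with 4 WT and 3 WDR6-WKO libraries and no covariate, and p-values were adjusted by Benjamini-Hochberg over all of them. The fit was tested on simulated data. Alternatives were DESeq2 1.42.0, limma-voom (limma 3.58.1), other scalings and filters, thinning, a replicate block, summing *C4a* and *C4b*, and leaving out each library. Gene positions and lengths came from GENCODE on GRCm38. Ratios between partners had 0.5 counts added. The text names all 9 members, the called genes of the other complement list, and at most 6 called genes each, by smallest p, of the regulator and acute phase lists. The rule also names *Wdr6*, *C2*, *C4a* and *C8g*, and *C1qa* and the cell type markers are given beside it. A regulator gene that this rule names is not reported here. Members and lists were chosen with earlier results of these data known.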

Additional observations from a re-analysis of the deposited data

Results flagged for a closer look

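Among the 37 genes named by rule, 3 had a WT library far from the other 3 by Dixon's test, which chance gives in about 1 in 20 groups. *C4bp* was 74.6 CPM in WT replicate 3, against 66.2 to 66.5 CPM in the others. *Vtn* was 130 CPM in WT replicate 4, against 146 to 149 CPM. *Lbp* was 69.7 CPM in WT replicate 4, against 73.9 to 74.5 CPM. The WDR6-WKO group, with 3 libraries, was not tested in this way, and none of the 9 complement members was among the 3 genes.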

How the results depend on the processing

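*C9* and *C3* were called in the same direction under all 16 alternatives. *C8a* was called in 11 of 16 and lost its call in 5 of the 7 fits without 1 library (adjusted p 0.0510 to 0.131, edgeR), so the count of members called higher ranged from 1 to 2 there. Under the study's thresholds, applied to the edgeR fit, 0 members were lower, and of the other complement genes 5 were higher and 1 lower. *C6* was at -0.348 in that fit and at -0.355 in DESeq2, on either side of the fold threshold. *C8b* was called with library sizes alone (adjusted p = 0.0444, edgeR), a scaling that moved the median of all genes by 0.03 and gave 1212 higher and 696 lower calls in place of 983 and 914. Signs turned for uncalled genes: *C4b* to -0.0481 without WDR6-WKO replicate 1 (highest 0.0820, without WDR6-WKO replicate 3), *Cfb* to -0.0115 without WDR6-WKO replicate 2 (highest 0.27, without WDR6-WKO replicate 3), *Cfi* to 0.00256 with library sizes alone, and *C2* to 0.00995 with the replicate block, 0.0102 without WT replicate 4, 0.000510 without WDR6-WKO replicate 2 and 0.0120 after thinning (lowest -0.0831, without WDR6-WKO replicate 3). The cause was not tested. Replicate numbers did not pair the samples (correlations of same-numbered deviations 0.031, 0.021 and 0.035). With the replicate block, WT replicate 4 has no partner of its number and adds nothing to the comparison of groups. The block gave 1762 calls over all genes in place of 1897, with 2 members higher and 1 lower, and among named genes it ended the calls of *C1qb* and *Cd59a* and no other. Leaving out 1 library gave 1032 to 4233 calls, the highest without WDR6-WKO replicate 3. *Cfb* rests on 72 to 130 reads per library.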

Other observations

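The genes whose pattern over the 7 libraries was nearest to that of a called member were taken from 9296 other genes with a mean of at least 10 CPM, by the root mean square distance of centred log2 CPM. For *C9* these were *Ccl7* (0.0385), *Cd300lf* (0.0627) and *Nr6a1* (0.0883). For *C3* they were *Ehd2* (0.0301), *Fam214a* (0.0343) and *Ptprk* (0.0370), and for *C8a* *Tlr3* (0.0616), *Srrm4* (0.0627) and *Clec7a* (0.0664). The distances describe these 7 libraries.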
